A study of Drosophila melanogaster with 12 samples.

Results

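The regions described here are 160 stretches of intergenic DNA that were listed as accessible in the fat body table of an ATAC-seq experiment on adult female Drosophila melanogaster. They were taken from 3447 regions of that table, and from 6353 regions over both tables of the study. A region was included if it lay on the X chromosome or an arm of chromosome 2 or 3 outside the pericentric DNA, shared no base with any region of the gut table, and stood more than 1000 bp from every protein-coding gene of Release 6. The first 2 conditions left 1019 regions of the fat body table, of which 859 were at genes and 160 were intergenic. Presence in one table and not in the other is therefore not a finding. The regions were chosen by the peaks listed in each tissue's table and by position. The rule itself holds no value of switched or control flies, though it was set with earlier results of these data known. How libraries were combined for peak calling is not stated, so a region may be listed through the group where it is high. Differences between groups given below may therefore not be independent of the listing. Gene distances rest on Release 6 spans, to which the deposited coordinates were matched.

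All flies had the genotype S106_UASfoxo, in which S106 is a GeneSwitch driver used for the adult fat body and gut and UAS-foxo supplies the forkhead factor of insulin signalling. GeneSwitch drivers become active when the steroid RU486 is eaten. The 3 switched libraries came from females given 200 µM RU486 over 21 days and control food over the following 7 days, and the 3 control libraries from females without RU486. The treatment text is the same for all samples, and the induction label, RU486+ or RU486-, sets the groups. Fat body and gut were dissected and their nuclei treated with Tn5, an enzyme that cuts accessible DNA and tags the cut ends. The age is given as adult, and how many flies went into a library is not given. No group ate RU486 without UAS-foxo, so the drug and the induction cannot be told apart. Nothing in the labels says that replicates came from separate cultures, so p-values measure the spread between these libraries, which may be technical.

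Intergenic accessible DNA in flies includes enhancers, which act on a promoter at a distance, insulators, and promoters of non-coding RNA genes. Such elements are known to differ between tissues more than the promoters of broadly used genes do. Intergenic stretches also hold tandem arrays, such as the 5S ribosomal RNA genes and the flanks of the histone gene repeats, where short reads can match many copies.

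Total counts per library ranged from 811020 to 1186153, of which mitochondrial DNA took 84.4% to 88.6% in control and 75.8% to 83.6% in switched libraries. Chromosome arms received 77667 to 98363 counts in control and 99999 to 148228 in switched libraries. The tissue label was set against marker genes, and fat body markers were not the more often listed ones. Of 13 fat body markers, 3 (Lsp1beta, Lsp2 and srp) had a region within 1000 bp in the table, while Yp1, Yp2, Yp3, apolpp, Fbp1 and Fbp2 had none. Of 18 gut markers found in the annotation, 9 had one, among them the trypsin gene alphaTry and the gut transcription factor gene GATAe. The others, betaTry, Jon65Aiii, Mal-A1, Mal-A5, cad, esg, lab, nub and pros, had none. Gut markers took 0.211% to 0.754% of arm counts in control and 0.339% to 0.447% in switched libraries. Fat body markers took 0.0254% to 0.252% in control and 0.238% to 0.332% in switched libraries, lowest in control replicates 2 and 3. For these reasons "labelled fat body" is used below. Of 13 muscle, 11 neuronal and 10 haemocyte markers, 2, 3 and 3 had a region. At muscle markers the share was 0.0773% to 0.134% in control and 0.199% to 0.314% in switched libraries, and at haemocyte markers 0.00500% to 0.0451% and 0.104% to 0.121%. At neuronal markers it was 0.0125% to 0.0811% in control and 0.0634% to 0.152% in switched libraries. Regions stood at Mef2 and sls (muscle), Rdl, cac and fne (neurons) and Col4a1, eater and lz (haemocytes), and none at Mhc, elav, nSyb, brp or Hml. The part of other cell types in the values below was not tested.

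Intergenic regions made up 15.7% of the 1019 regions found in the fat body table alone. In comparison, 21.4% of the bases within the same chromosome bounds lay more than 1000 bp from a protein-coding gene. Among regions of the gut table alone, 107 of 1766 were intergenic (6.06%), and of the 287 regions found in both, 30 were (10.5%). These shares describe the tables and were not tested. Genes were 1089 to 79266 bp away, with a median of 6761.5 bp. Within 2 kb of a gene lay 22 of the 160 regions, and 59 lay more than 10 kb and 8 more than 50 kb from one. In all, 114 different protein-coding genes were the nearest to at least 1 region.

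The 3 regions just inside the 1000 bp limit lay 1089 bp from the histone gene His3:CG33866, 1141 bp from Jhbp13 and 1147 bp from the cytochrome P450 gene Cyp6a8, with 1 count each over all 6 libraries. Just outside it, regions 988 bp from CG14974 and 948 bp from CG3690 had counts in 5 of 6 libraries, at 0 to 69 and 0 to 88 counts. The third, 966 bp from the homeobox gene inv, had 1 count.

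The X chromosome held 39 of the regions, 2L 39, 3R 30, 2R 28 and 3L 24. Per Mb of intergenic DNA within the bounds this was 10.0 on X, 7.89 on 2R, 7.16 on 2L, 5.00 on 3R and 4.43 on 3L. When only regions with more than 10 counts in total were taken, X was still highest at 5.66 per Mb, and 3R was lowest at 3.17. A region of the gut table lay within 1 kb of 8 of the 160 and within 10 kb of 35.

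The intergenic regions fell into 2 sets by their counts. In 60 of 160 (37.5%) the total over all 6 libraries was 10 or less, and these 60 regions shared 103 counts. Of them, 40 had a single count. In the other 100 regions the total was above 10, and 57 reached 200 or more. Regions with so few counts were 25.9% of the whole table, 8.38% of the regions at genes and 3.83% of the shared regions. They were 35.3% of the regions outside the bounds of the rule, close to the intergenic share. Of the 132 barely read regions found in the fat body table alone, 45.5% were intergenic, against 11.3% of those with more than 10 counts.

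Barely read regions were also longer, with a median of 165.5 bp against 95.5 bp for the 100 others. This was not particular to intergenic regions. At genes the medians were 151 bp and 85 bp, and among shared regions 325 bp and 129 bp. Outside the bounds the order was reversed, at 118 bp and 140 bp. The shortest length in the table, 70 bp, occurred in 24 of the 160 regions (15%), and in 24.0% of the regions at genes. The longest intergenic region, 8156 bp from CG6168 (3L, 11329875 to 11331510), measured 1636 bp and had 48 counts, 47 of them in switched replicate 1. Values of barely read regions are at the limit of the depth, and no difference between groups was detectable there.

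**Figure D1:**
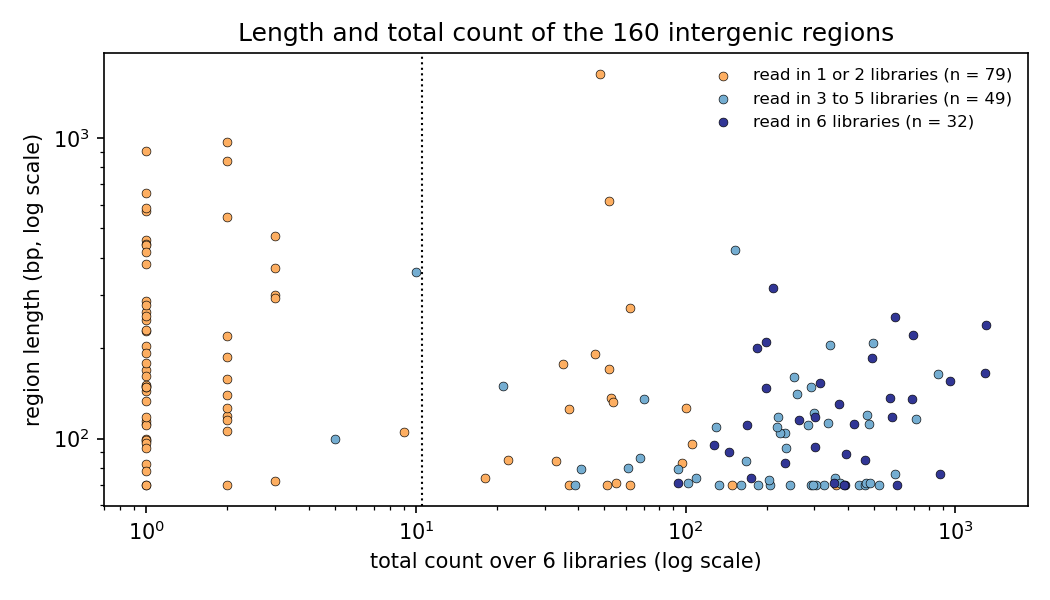
Total count over 6 libraries (x axis, log scale) against region length in bp (y axis, log scale) for the 160 intergenic regions, coloured by the number of libraries with at least 1 count. The 60 regions left of the dotted line have 10 counts or less, and their median length of 165.5 bp exceeds the 95.5 bp of the 100 regions to its right.

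Some of the regions stood beside gene copies that resemble each other closely. Near 5S ribosomal RNA genes, histone genes and pseudogenes, Hsp70 genes, Stellate genes or U3 small nucleolar RNA genes, within 10 kb, lay 15 of the 160, a grouping made after the values were seen. Of these, 9 had 10 counts or less. How the authors counted reads that match several places is not given in the sources used here, so the values of these 15 regions are uncertain.

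Counts are given here for control replicates 1, 2 and 3 and, after the word against, for switched replicates 1, 2 and 3. On 2R, 3 regions overlapped genes of the 5S ribosomal RNA array, 15164 to 26124 bp from CG8517. Counts at the first (19730032 to 19730107) were 119, 68 and 272 against 293, 103 and 24. The groups overlapped, with switched replicate 3 lowest. Both other regions of the array, at 19733660 to 19733821 and at 19740992 to 19741069, had 1 count.

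Runs of 3 or more regions, each within 10 kb of the next, occurred at 8 places and held 28 of the 160 regions, 9 of them with more than 10 counts. The 4 regions beside the histone array on 2L (21408891 to 21410988), 5965 to 7993 bp from the linker histone gene His1:CG33801, summed to 1, 10 and 11 against 140, 7 and 115. Switched replicate 2 lay within the control range. The 4 regions near CG43125 on 3R (28253960 to 28255440) had 6 counts in all, with 0 to 2 per library. Those near CG17580 on 2R (12820976 to 12823116) had 0 to 3 per library. Likewise, 3 regions near the ionotropic receptor gene Ir11a on X (12382187 to 12384203) had 0 to 3. Near CARPA on X (7846166 to 7847153), 1 of 3 regions held nearly all counts, and the sums were 101, 7 and 73 against 167, 51 and 94.

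In the wide stretch before jing, a zinc finger protein gene, 3 regions on 2R (6469817 to 6479510) lay 22496 to 32020 bp from the gene. Their summed counts were 70, 0 and 0 against 73, 1 and 0, so that replicate 1 of each group held nearly all of them. The pair farthest from any protein-coding gene lay in the same stretch, 79266 and 78941 bp from jing (2R, 6422657 to 6422740 and 6422970 to 6423065). The first had 33 counts in switched replicate 3 and 0 in the other libraries, the second 20 in control replicate 1 and 86 in switched replicate 3. A region 66586 bp from the phospholipase gene Pld (2R, 6321852 to 6321936) was instead read throughout, at 36, 5 and 105 against 202, 69 and 44. On X, 4 regions 48980 to 60910 bp from SteXh:CG42398 or CG17636 (51160 to 63460) summed to 2, 4 and 52 against 13, 1 and 0. The last 2 of the 5 farthest regions belong to that run, at 59885 to 60010 and at 63270 to 63460. At 4 of the 5 farthest places all counts of a region came from 1 or 2 libraries.

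Being read in few libraries was common. A region is called read in a library where it has at least 1 count. Of the 160 intergenic regions, 55 were read in 1 library (34.4%), 24 in 2, 7 in 3, 17 in 4, 25 in 5 and 32 in all 6 (20%). Regions at genes were read in 1 library in 6.98% of cases and in all 6 in 32.4%. For regions shared with the gut table these shares were 2.44% and 66.6%, and for regions outside the bounds 25.6% and 24.99%. With more than 10 counts in total, 32 of 100 intergenic regions were read in all 6 libraries (32.0%), near the 35.3% of regions at genes. The lower share among all 160 thus went with the barely read regions.

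**Figure D2:**
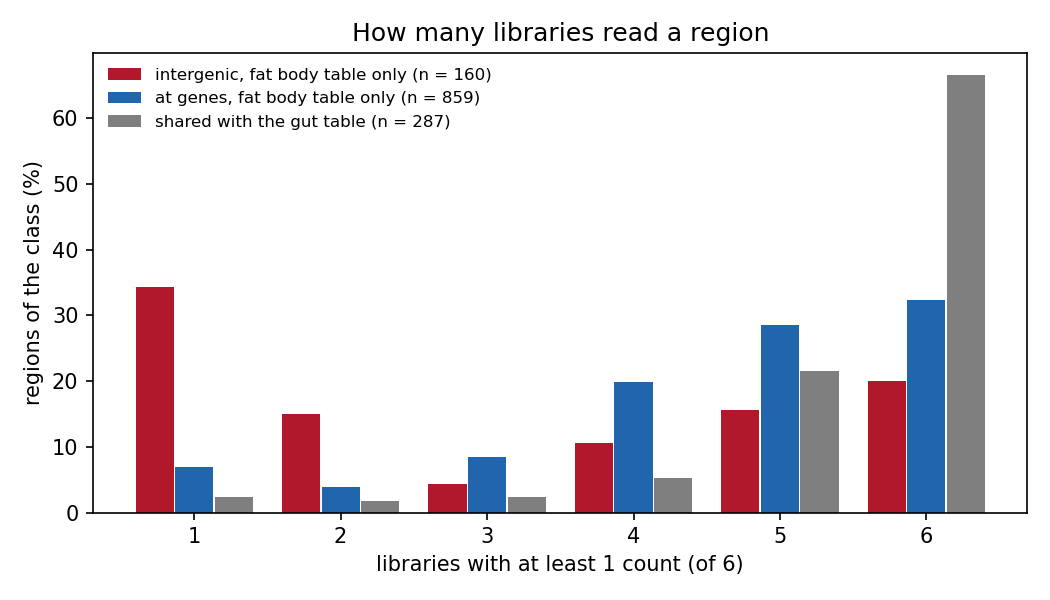
Percentage of regions (y axis) by the number of libraries with at least 1 count (x axis), for 160 intergenic regions, 859 regions at genes and 287 regions shared with the gut table. Intergenic regions peak at 1 library (34.4%), the other 2 classes at 6 (32.4% and 66.6%).

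Replicates of a group could differ from 0 to many counts at the same region. In 33 of the 160 regions a library had 0 counts while another library of the same group had at least 50, which made 49 such pairs of region and library. The number for other regions of the table is not given, so this cannot be read as particular to intergenic regions. A region inside the non-coding RNA gene lncRNA:CR45054, 11866 bp from the alkaline phosphatase gene Alp13 (3R, 10087239 to 10087402), had 0, 281 and 0 against 78, 73 and 429. Its normalised count, in CPM scaled by TMM (trimmed mean of M values), was 117.6 ± 203.7 (mean ± SD, n = 3) in the control group and 158.2 ± 151.4 in the switched group. Within the control group the SD exceeded the mean. For the 100 regions with more than 10 counts, the library with the most counts held a median of 46.7% of them, against 42.5% for regions at genes.

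By mean normalised count the most strongly read region was 4734 bp from peb, which encodes the zinc finger protein Hindsight (X, 4612592 to 4612830), at 171, 185 and 120 against 96, 166 and 556. In CPM this was 186.0 ± 68.1 and 229.5 ± 182.2 (SD, n = 3). All 6 libraries read it, the groups overlapped, and switched replicate 3 was highest. Next came a region overlapping the non-coding genes lncRNA:Vinr and lncRNA:CR44619, 1930 bp from CG4004 (X, 12751715 to 12751879), at 58, 9 and 239 against 300, 102 and 576. Control replicate 3 exceeded switched replicate 2, so these groups overlapped too.

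A region 3269 bp from Kr-h1, a zinc finger factor of juvenile hormone signalling, overlapped lncRNA:CR9162 (2L, 6079200 to 6079334). Its counts were 92, 39 and 98 against 116, 52 and 293. Near Psc, a subunit gene of the Polycomb repressive complex PRC1, a region overlapping lncRNA:CR44339 (2R, 12985671 to 12985891; 4677 bp from Psc) had 14, 178 and 105 against 62, 232 and 105. The groups overlapped at both places. A region 11266 bp from danr, a nuclear protein gene of eye and antenna development, overlapped lncRNA:CR46474 (3R, 25151169 to 25151422) and had 68, 107 and 165 against 175, 52 and 31.

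The remaining regions among the 10 highest, beside those near CG8517 and Alp13, lay 1565 bp from out (X, 19323671 to 19323825), 1704 bp from dikar (3L, 6727027 to 6727096) and 1238 bp from CG13631 (3R, 24767998 to 24768113). Near out the counts were 147, 92 and 37 against 262, 68 and 350, and near dikar 3, 160 and 34 against 253, 98 and 58. Near CG13631 they were 0, 0 and 58 against 285, 53 and 319. In raw counts control replicate 3 thus lay above switched replicate 2 by 5 counts, and the other control libraries had none. In CPM switched replicate 2 stood above control replicate 3, so every switched library lay above every control library. This order is by count and not per length. Per kb the 5S ribosomal RNA region led at 1856 CPM, followed by the one near dikar at 1403, while the region near peb stood at 869. Together the 10 regions with the largest totals held 29.3% of all counts at the 160.

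Genes of other types overlapped 19 of the 160 regions, of which 13 had more than 10 counts. Long non-coding RNA genes accounted for 10, 5S ribosomal RNA genes for 3, antisense RNA genes and pseudogenes for 2 each, a small nucleolar RNA gene for 1, and a hairpin RNA gene with a pseudogene for 1. Within 1000 bp of such a gene lay 31 regions, so 129 stood apart from genes of every type. All 10 regions at long non-coding RNA genes had more than 10 counts, in contrast to the pair inside asRNA:CR45330 with 1 count each.

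The nearest protein-coding genes were set against 7 gene lists. Developmental transcription factors were nearest to 6 of 160 regions (3.75%), namely disco-r, klu, oc, sna, vnd and wg, the last of which encodes the Wingless ligand. Of all intergenic bases within the bounds, 7.34% had a gene of that list as the nearest, and 16 of the 859 regions at genes did (1.86%). Neuronal adhesion and axon guidance genes were nearest to 3 regions (1.88%, against 4.49% of intergenic bases), namely the neuroligin genes Nlg1 and Nlg4 and beat-IV. Hormone receptor and ecdysone genes were nearest to 1 (0.625%, against 0.235% of bases), which was dsf, a nuclear receptor gene. No intergenic region had a nearest gene among FOXO and insulin, lipid, immune, or ion channel and neurotransmitter receptor genes. These lists covered 0.208%, 0.0333%, 0.249% and 1.20% of intergenic bases. A nearest gene is a neighbour and need not be the gene a region acts on.

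All 10 regions beside listed genes had more than 10 counts. Near vnd, a homeobox gene of the neuroectoderm (X, 580707 to 580842; 1279 bp), the counts were 129, 43 and 25 against 51, 90 and 233. Near klu, a zinc finger gene (3L, 11010446 to 11010563; 1258 bp), they were 44, 120 and 117 against 18, 112 and 169. The groups overlapped at both. Near disco-r, also a zinc finger gene (X, 16155329 to 16155417; 6352 bp), they were 49, 2 and 116 against 30, 78 and 117, and near dsf (2L, 5940409 to 5940478; 1148 bp) 36, 0 and 63 against 287, 59 and 16. The groups overlapped there as well.

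The region 2437 bp from beat-IV, a gene for an axon guidance protein of the Beaten path family (3R, 23582514 to 23582597), separated the groups, with 1, 0 and 29 against 36, 60 and 41. Near Nlg4 (3R, 20192058 to 20192127; 12682 bp) the counts were 0, 42 and 0 against 105, 108 and 42. The highest control library equalled the lowest switched one in raw counts. In CPM control replicate 2 stood at 52.7 and switched replicate 3 at 32.6, so the groups overlapped. Near Nlg1 (3R, 7708318 to 7708387; 13444 bp) they were 0, 1 and 0 against 0, 2 and 36.

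The study's design asks whether chromatin of flies that had overexpressed foxo in the first 3 weeks still differed after 1 week without the inducer. No intergenic region passed the test. Under edgeR's quasi-likelihood test with Benjamini-Hochberg adjustment over all 1674 tested regions, 0 of 68 tested intergenic regions had an adjusted p under 0.05, and the smallest was 0.189. Over the whole table the share called was 0.0% in either direction. The spread between libraries was wide, with a common dispersion of 1.40 and a median SE of 1.59 (log2) over the 68, and on counts simulated with that spread the test also missed large changes. A count of 0 thus does not show that the regions did not differ. At an unadjusted p under 0.05, 4 were higher in switched libraries (5.88%) and 1 lower (1.47%), against 3.88% and 0.896% of all tested regions. Among tested regions at genes, 6.62% were higher at that p. Of the 160 regions, 92 were left out by the filter on low counts, 32 of which had more than 10 counts. A region read in 1 group alone passes this filter through that group, so the values of the 68 are no support for a direction.

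DESeq2, the other tool run, called 5 intergenic regions higher and 1 lower at an adjusted p under 0.05, of 87 for which it gave one. That is 5.75% and 1.15%, beside 3.22% and 0.634% of 2052 regions of the table. Without a filter on low counts, edgeR called 1 of 160 higher and 1 lower (0.625% each), against 0.406% and 0.145% of the table. Whether any region was called thus depended on the tool and on the filter.

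The called regions had counts in 1 group and few or none in the other. A region 13476 bp from Prx1 (3L, 15194298 to 15194368) had 0, 0 and 0 against 111, 221 and 41. Taking 3 counts summed over the control libraries as the floor, it was at least 96.8-fold higher in the switched group. The edgeR adjusted p was 0.189 and the DESeq2 adjusted p 0.000101. Another, 6059 bp from CG33346 (3R, 28663105 to 28663174), had 0, 0 and 0 against 86, 45 and 74, at least 53.2-fold higher, with adjusted p-values of 0.189 from edgeR and 0.000192 from DESeq2. No control library had a read at either place. These bounds would cover counting error only if reads were independent molecules, which amplified reads are not. They do not cover the spread between libraries.

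Near Cpr12A, a cuticle protein gene (X, 13540278 to 13540482; 3161 bp), the counts were 0, 2 and 6 against 122, 163 and 51, or 2.63 ± 2.70 and 104.8 ± 69.2 CPM (SD, n = 3). The fitted log2 fold change of 5.22 ± 1.68 (SE) had an adjusted p of 0.386 from edgeR and 0.00387 from DESeq2. Near CG13127 (2L, 10023385 to 10023488; 3188 bp) they were 0, 2 and 5 against 61, 51 and 104, with a log2 fold change of 4.62 ± 1.73 (SE) and adjusted p-values of 0.657 from edgeR and 0.0101 from DESeq2. At both, the lowest switched library had more than 8 times the counts of the highest control library, before normalisation. The fifth region that DESeq2 called higher, 8090 bp from Pkg21D, a cGMP-dependent protein kinase gene (2L, 798888 to 798957), had 0, 0 and 0 against 309, 51 and 0. It was not tested by edgeR, and its DESeq2 adjusted p of 0.0374 came with a switched library at 0.

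The region with the next smallest p among the higher ones had counts in every library. It lay 2370 bp from E(spl)malpha-BFM, a gene of the Enhancer of split complex, whose genes respond to Notch signalling (3R, 26008454 to 26008523). There 19, 10 and 24 stood against 77, 155 and 102. Before normalisation the lowest switched count was over 3 times the highest control count. A log2 fold change of 2.40 ± 1.17 (SE) gave an adjusted p of 0.984 from edgeR and 0.123 from DESeq2, and it passed neither test.

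In the other direction, a region 3113 bp from Rubicon, whose mammalian counterpart restrains autophagy (X, 8673829 to 8673950), had 162, 89 and 47 against 0, 0 and 0. With 3 counts summed over the switched libraries as the floor, it was at least 128-fold lower, under the same limits. Its adjusted p was 0.189 from edgeR and 4.31e-05 from DESeq2. The 4 other lower regions with the smallest p all had counts in both groups. Near CG14316 (3R, 18145810 to 18145950; 6170 bp) they were 30, 88 and 88 against 2, 51 and 0, with a log2 fold change of -2.0 ± 1.87 (SE) that became -6.37 without switched replicate 2. Near Syx7, a syntaxin gene of membrane fusion (3L, 21456824 to 21456953; 8696 bp), they were 47, 53 and 142 against 80, 3 and 45, at -1.31 ± 1.31 (SE), which became -2.13 without switched replicate 1 and -0.77 without switched replicate 2. Both groups overlapped at these 2 regions. Near CG14926 (2L, 11316883 to 11317305; 24996 bp) the counts were 79, 14 and 15 against 44, 0 and 1, and near PsGEF (X, 2391332 to 2391404; 3668 bp) 16, 42 and 91 against 54, 0 and 1. At both, switched replicate 1 was within the control range and switched replicates 2 and 3 were below it. The edgeR adjusted p was 0.984 for all 4.

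**Figure D3:**
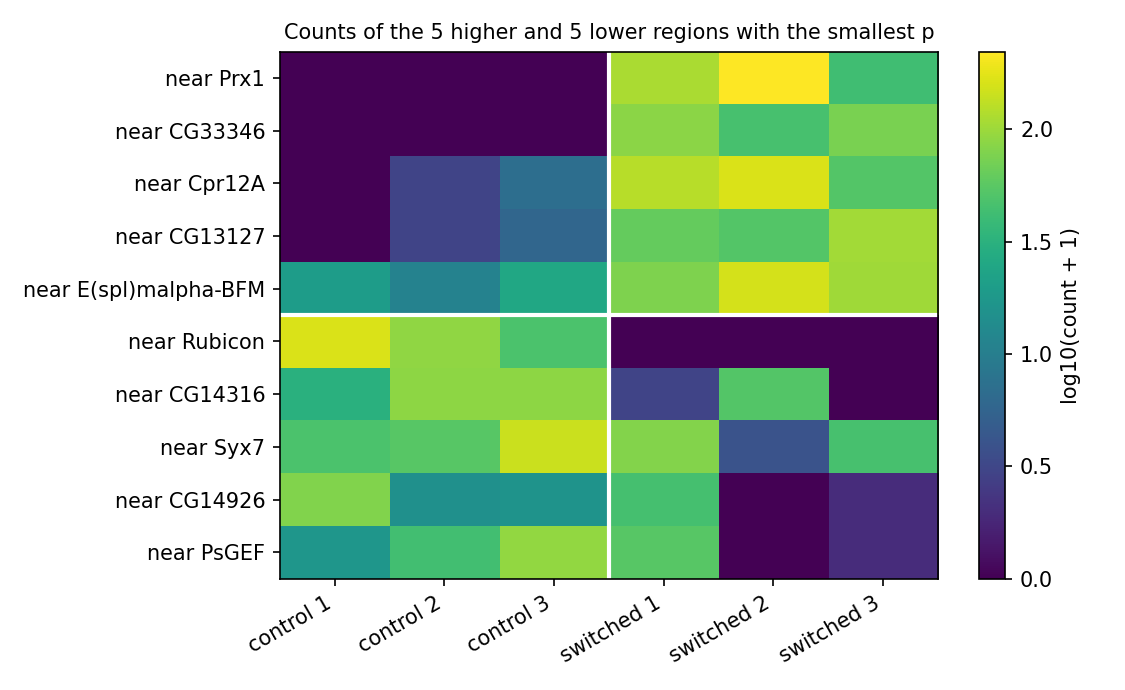
Counts, as log10(count + 1) by colour, in 6 libraries (columns) for the 5 higher and 5 lower intergenic regions with the smallest edgeR p-values (rows, by nearest protein-coding gene). The regions near Prx1 and CG33346 are at 0 in all control libraries and the one near Rubicon at 0 in all switched libraries.

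Of the 68 tested intergenic regions, 49 had a fitted log2 fold change above 0 and 19 below (72.1% above), and their median was 0.75. Over all 1674 tested regions 57.3% were above 0 and the median was 0.25. Regions at genes, with 69.7% above 0 and a median of 0.85, were close to the intergenic ones, while shared regions had a median of 0.15 and mitochondrial regions of -0.76. With library totals in place of TMM factors the median of all tested regions moved to 0.94 and that of intergenic regions to 1.40, with 58 above 0 and 10 below (85.3% above). Set against the median of all tested regions, intergenic regions stood 0.50 higher with TMM and 0.47 higher with library totals. Among the 30 tested intergenic regions read in all 6 libraries the median was 0.38, against -0.06 for 895 such regions of the table. The difference of intergenic regions from the rest was not tested.

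**Figure D4:**
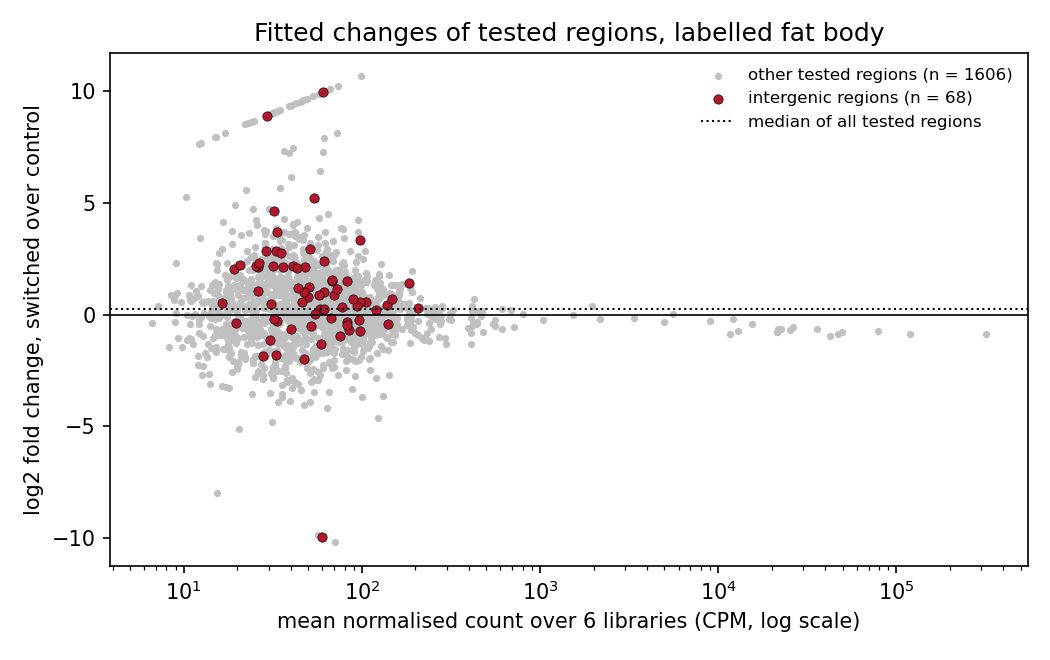
Fitted log2 fold change of switched over control libraries (y axis) against mean normalised count in CPM (x axis, log scale), for 68 tested intergenic regions and the other tested regions of the table labelled fat body. The dotted line is the median of all tested regions, 0.25, and the 2 highest and the lowest intergenic points are regions with 0 counts throughout 1 group.

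By raw counts, every switched library exceeded every control library at 13 of the 160 intergenic regions (8.13%), against 8.01% over the table, and lay below at 3 (1.88%), against 2.47%. By normalised counts 13 of 68 tested intergenic regions had all switched libraries above (19.1%), against 10.7% of all tested regions and 17.9% of tested regions at genes. Normalised counts put 1 of the 68 below (1.47%), against 5.5% over the table. Regions read in switched libraries alone numbered 12 of the 100 with more than 10 counts (12.0%), against 7.17% over the table, and those read in control libraries alone 5 (5.00%), against 4.07%. Of those 17 regions, 9 were read in a single library.

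Summed over all 160 regions, intergenic DNA took 4.06%, 3.72% and 3.74% of arm counts against 6.04%, 4.48% and 4.84%. The mean was 3.84% ± 0.190 (SD, n = 3) in control and 5.12% ± 0.821 in switched libraries, a difference of 1.28 percentage points. By this measure every switched library lay above every control library, with switched replicate 1 the highest. Regions at genes took 35.9% ± 3.82 of arm counts in control and 44.9% ± 1.43 in switched libraries, also without overlap. The separation at intergenic regions depended on the denominator. Of counts within the chromosome bounds of the rule, they took 5.72%, 5.30% and 5.09% against 8.37%, 6.34% and 5.43%. Control replicate 1 then exceeded switched replicate 3, and the groups overlapped. In arm counts, shared regions stood at 31.8% ± 1.995 and 27.2% ± 10.96. No p is given for these sums, because the regions were chosen with results of these data known. A region may also have been listed through the libraries where it was high. The mitochondrial share was lower and the arm total higher in switched libraries, and their part in the difference was not tested.

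**Figure D5:**
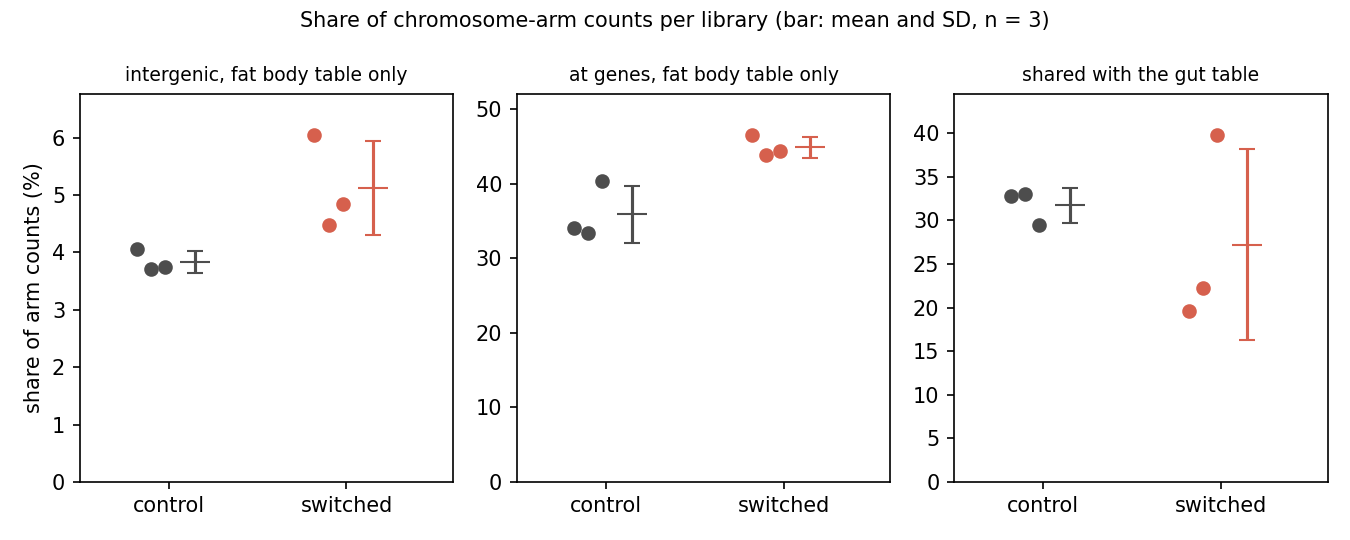
Share of counts on chromosome arms (y axis, percent) at intergenic regions, at regions at genes and at regions shared with the gut table, for 3 control and 3 switched libraries (points) with the mean and SD beside them. For intergenic regions the control libraries lie at 3.72% to 4.06% and the switched ones at 4.48% to 6.04%.

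The switched libraries also read more of the regions. Among the 100 intergenic regions with more than 10 counts, 67, 65 and 61 were read against 84, 77 and 77. When every library was thinned to 77667 counts on chromosome arms, the smallest total, the expected numbers were 67.0, 64.9 and 60.4 against 82.5, 75 and 75.5. The mean difference was 15 regions as deposited and 13.6 at equal depth. For comparison, regions at genes had 567 to 601 of 859 read in control and 706 to 760 in switched libraries. Among the 60 barely read regions, switched replicate 1 read 27 and the other 5 libraries 7 to 17. The highest count of an intergenic region was 171 to 281 in control and 232 to 576 in switched libraries.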

How the data were processed

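ATAC-seq libraries labelled fat body (3 control, 3 switched) were analysed, and the gut table served for region positions alone. The deposited values are unnormalised counts of reads in each listed region. FastQC, Trimmomatic, MACS2, featureCounts and DESeq2 are named in the submitters' processing notes. Aligner, build, peak calling settings, removal of duplicates and treatment of multiply matching reads are not stated there. Duplicates left in would widen the spread between libraries.

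Scaffold names follow Release 6. For 48.4% of gut table regions within the bounds, the midpoint lay within 500 bp of a gene end. After the regions were moved by 5000 or 10000 bp, this share was 20.7% to 24.0%. Gene spans and types came from RefSeq (Release 6 plus ISO1 MT, 13951 protein-coding genes). Sequences and motifs were not analysed here.

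All 3447 regions were fitted with edgeR 4.0.16 in R 4.3.3 (filterByExpr, minimum count 10 and minimum total 15; TMM; quasi-likelihood F test; Benjamini-Hochberg adjusted p under 0.05), which tested 1674. The SE was the log2 fold change over the square root of F. CPM used TMM factors. The common dispersion was 1.40. The procedure was tested on simulated data, where it recovered changes at a low dispersion and not at the fitted one. DESeq2 1.42.0 was the alternative. Libraries of a group were compared pairwise, and all differed by more than counting noise (chi-square per degree of freedom 31.0 to 81.3).

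Named regions were those with the 5 smallest p in each direction, the 10 highest mean CPM, the 5 farthest from a gene, 3 nearest the limit, at most 3 per gene list, and runs of at least 3. The regions near Pkg21D, CG6168, Hsp70 genes and asRNA:CR45330 were named after their values were seen. Members, lists and tests were chosen with earlier results of these data known. Of 458 list symbols 441 matched the annotation.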

Additional observations from a re-analysis of the deposited data

How the results depend on the processing

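At the depth of 77667 to 148228 arm counts, a 0 cannot be told from weak accessibility. With DESeq2, 79 regions of the table and 6 intergenic regions were called, with 10 of 155 higher (6.45%) and 4 lower (2.58%) at an unadjusted p under 0.05, against 5.00% and 2.26% of the table. Without a filter on low counts edgeR called 19 and 2, with 13 higher (8.13%) and 5 lower (3.13%) at that p, against 6.06% and 4.35%. With the stricter filter it called 0 and 0, with 1 higher (2.70%) and 0 lower at that p, against 0.514% and 0.412%. Without each replicate in turn edgeR called 0 of the intergenic regions, and the numbers at an unadjusted p under 0.05 ranged from 4 to 11 higher and from 1 to 3 lower. The higher ones numbered 10, 11 and 9 without control replicates 1, 2 and 3 (13.5%, 14.5% and 11.8%), where the table's share also rose, from 3.88% to 7.81%, 7.01% and 7.10%. The lower ones numbered 3 without switched replicate 1 and 2 without control replicate 3 or switched replicate 2 or 3, and the table's share rose from 0.896% to between 1.60% and 2.88%. The 10 regions with the smallest p kept the sign of their log2 fold change in every setting that tested them. The sizes near CG14926 and PsGEF reached -6.34 and -6.57 without switched replicate 1. The median log2 fold change of tested intergenic regions stayed above 0 and above that of all tested regions in every setting run. A gene distance over 5000 bp left 100 regions, and the other rules left 129 to 172. Counting a region as read from 5 counts gave 11 in control alone and 18 in switched alone, and from 10 counts 15 in every library, 12 in control alone and 19 in switched alone, against 32, 26 and 43 from 1 count. Without each replicate in turn, 17 to 37 were read in control alone and 23 to 54 in switched alone. Without control replicate 3 there were 17 in control alone, and without switched replicate 1 there were 23 in switched alone. No share over all regions is given for these numbers, so they cannot be read as particular to intergenic regions. Of all regions with more than 10 counts, 7.17% were read in switched libraries alone and 4.07% in control libraries alone. The difference in share was 0.425 percentage points of all counts and 1.34 of counts within the bounds, in place of 1.28 of arm counts. With counts within the bounds the groups overlapped. Of arm counts it was 0.818 to 1.60 without each replicate in turn, lowest without switched replicate 1. The causes of these shifts were not tested. Thinning to equal depth and the median set against that of all regions were chosen after seeing the data.

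With the replicate block 0 intergenic regions were called, 4 were higher (5.88%, against 3.35% of the table) and 1 lower (1.47%, against 1.67%) at an unadjusted p under 0.05, and the median was 1.34. The log2 fold change near CG14316 was -4.35 with the block. Same-numbered libraries did not deviate together (correlations 0.00134, -0.0276 and -0.0661), and not every library correlated best with its own number, so the numbers were not taken as pairs.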
